A study of Mus musculus with 6 samples.

Results

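The genes described here are 10 mouse genes that control entry into S phase: the CDK inhibitors Cdkn1a, Cdkn1b, Cdkn1c and Cdkn2c, the pocket proteins Rb1, Rbl1 and Rbl2, and the D cyclins Ccnd1, Ccnd2 and Ccnd3. They were taken by name as the growth arrest arm of FGF signalling in chondrocytes, and are 10 of the 38924 genes in the count tables. RNA was sequenced from cartilage of the anterior nasal septum, cut out of frozen sections by laser capture at embryonic day (E) 14.5. The Apert group held 3 mice of genotype Fgfr2+/S252W; EIIA-Cre on C57BL/6, which carry 1 copy of a missense allele of fibroblast growth factor receptor 2 found in people with Apert syndrome. EIIA-Cre is active in the early embryo, so the mutant allele is not limited to cartilage. The comparison group held 3 mice labelled WT on C57BL/6, and the labels do not say whether these carried the Cre. Each library came from a separate mouse.

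Passage from G1 into S phase depends on the pocket proteins pRB (Rb1), p107 (Rbl1) and p130 (Rbl2), which bind E2F transcription factors and hold their target genes silent. Cyclin D bound to CDK4 or CDK6 phosphorylates the pocket proteins and frees E2F; INK4 inhibitors such as p18 (Cdkn2c) block those kinases, and the Cip/Kip inhibitors p21 (Cdkn1a), p27 (Cdkn1b) and p57 (Cdkn1c) bind cyclin and CDK together. In growth plate chondrocytes, FGF signalling is known to slow division, with p21 and dephosphorylated p107 and p130 among the mediators described, and p57 is needed for chondrocytes to leave the cell cycle. Much of this control acts on protein stability and phosphorylation, which RNA counts do not measure.

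Short stretches of coding sequence show what the members of each family share, since these are the parts through which the proteins meet one another. The D cyclins carry near their first codon an LxCxE motif, the letters by which they contact pocket proteins. The stretches below are from the GENCODE M21 transcripts, 5′ to 3′, from the start codon, with the motif's codons in capitals.
Ccnd1: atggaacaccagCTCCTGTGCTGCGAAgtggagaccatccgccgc
Ccnd2: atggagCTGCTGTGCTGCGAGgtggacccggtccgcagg
Ccnd3: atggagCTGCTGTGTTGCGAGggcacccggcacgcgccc
Over the 15 motif bases, Ccnd2 and Ccnd3 were identical at 14, Ccnd1 and Ccnd2 at 13, and Ccnd1 and Ccnd3 at 12. The Cip/Kip inhibitors each hold an RxLF motif, through which they dock on the cyclin. It is shown with the codons around it, the motif again in capitals.
Cdkn1a: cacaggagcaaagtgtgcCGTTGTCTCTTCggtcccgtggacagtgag
Cdkn1b: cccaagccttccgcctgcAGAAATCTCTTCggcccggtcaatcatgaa
Cdkn1c: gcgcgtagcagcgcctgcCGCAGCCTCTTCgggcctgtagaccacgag
Of these 12 motif bases, Cdkn1a and Cdkn1c shared 9, and Cdkn1b shared 8 with each of the other two. The motif began at coding base 52 in Cdkn1a, 88 in Cdkn1b and 97 in Cdkn1c, so it lies in the amino-terminal part of each protein.

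The libraries held 6760510 to 10527915 counts in Apert mice and 8631181 to 10834744 in WT mice. Fgfr2 itself had 584, 511 and 467 CPM (counts scaled for library size with edgeR's TMM method) in Apert libraries, against 701, 583 and 611 CPM in WT libraries, a log2 fold change of -0.28 (SE 0.14, edgeR adjusted p = 0.462). The groups overlapped by a single library. In the annotation used, exons of Fgfr2 overlap those of Ctbp2. A point mutation leaves the exons in place, so this level does not check the genotype labels. All 16 cartilage markers, such as the collagen gene Col2a1 and the chondrocyte transcription factor Sox9, were measured, and their sum ran from 39774 to 43133 CPM in Apert and from 38665 to 49786 CPM in WT libraries. None of the 16 passed the edgeR test, but 12 had a negative log2 fold change (6515 of all 13333 tested genes did). An unadjusted p under 0.05 was seen for 5, against 11.4% of all tested genes. These included Matn3, which was higher in Apert (log2 fold change 0.85). All 3 Apert libraries lay below the WT libraries for 4 markers (7.7% of all tested genes) and above them for 1, Matn3 (8.92%). Sox9 was among the 4 lower markers, at 619, 482 and 339 CPM in Apert libraries, against 847, 799 and 639 CPM in WT libraries (log2 fold change -0.67, edgeR adjusted p = 0.125). None of 7 epithelial and none of 6 muscle markers had enough counts to be tested. Tested were 6 of 8 erythroid, 2 of 6 leukocyte, 2 of 7 neuronal, 1 of 6 endothelial and 1 of 7 osteoblast markers. None of these passed the edgeR test. Without adjustment, Hba-x (erythroid, log2 fold change -0.82) and Cd68 (leukocyte, 0.88) had p under 0.05, against 11.4% of all tested genes. The erythroid sum was 58.7 to 70.8 CPM in Apert and 50.4 to 92.9 CPM in WT libraries. The mitochondrial genome took 34.3% to 40.4% of counts in Apert and 28.8% to 30.2% in WT libraries. In bulk tissue, fewer cells of a type and less RNA per cell cannot be told apart.

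The 10 genes covered a wide range of levels, and the order at the top was the same in every library. Compared per length, as CPM per kilobase of exon, Cdkn1c stood far above the rest, at 225 ± 29.8 in Apert and 234 ± 14.7 in WT libraries (SD, n = 3 each), higher than 99.61% of tested genes. Ccnd2 came next at 65.6 ± 6.91 CPM per kilobase in Apert and 63.1 ± 4.90 in WT libraries. Ccnd1 followed at 24.5 ± 4.20 CPM per kilobase in Apert and 22.4 ± 4.99 in WT libraries, and Rbl2 at 8.88 ± 0.605 in Apert and 8.25 ± 0.436 in WT libraries. Each of these 4 genes stood above the next in the order in all 6 libraries, with no overlap of their ranges.

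Below Rbl2 the order was not fixed. Cdkn1b, Rb1, Ccnd3 and Rbl1 averaged 4.95, 4.14, 4.06 and 3.90 CPM per kilobase over the 6 libraries and overlapped one another, so these neighbours did not differ beyond their spread. Cdkn1a at 2.38 and Cdkn2c at 1.28 CPM per kilobase were lowest, and their ranges overlapped too. By transcript level, Cdkn1c was therefore highest among the inhibitors, Rbl2 among the pocket proteins and Ccnd2 among the D cyclins. This held in both genotypes, and protein was not measured. Levels per length depend on the merged exon length in the annotation. That length was greatest for Ccnd3, at 8775 bases beside 879 coding bases, so its place in the order is uncertain.

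**Figure D1:**
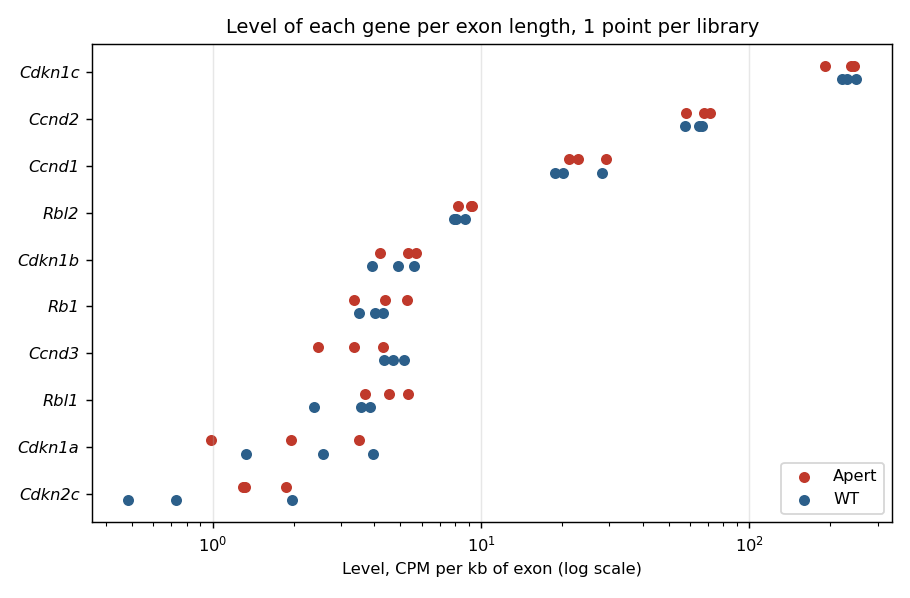
Level of each gene as CPM per kilobase of exon (horizontal log axis), 1 point for each of the 3 Apert and 3 WT libraries, ordered by mean level. Cdkn1c, Ccnd2, Ccnd1 and Rbl2 hold the same order in all 6 libraries, and each of the 6 genes below them overlaps at least 1 other.

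Between the genotypes, none of the 10 genes passed the test (edgeR quasi-likelihood F test, Benjamini-Hochberg adjusted p under 0.05 over 13333 genes), while 60 of all tested genes, 0.45%, did (0.398% higher and 0.0525% lower in Apert). Without adjustment, 1 of the 10, Ccnd3, had p under 0.05, against 11.4% of all tested genes. DESeq2 and limma-voom also called none; DESeq2 gave no adjusted p for Cdkn1a and Cdkn2c. Log2 fold changes, Apert over WT, were positive for 7 genes and negative for 3, with a median of 0.10 beside 0.01 over all tested genes. Leaving the libraries scaled by their totals alone moved the median over all genes to -0.15 and that of the 10 genes to -0.06.

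**Figure D2:**
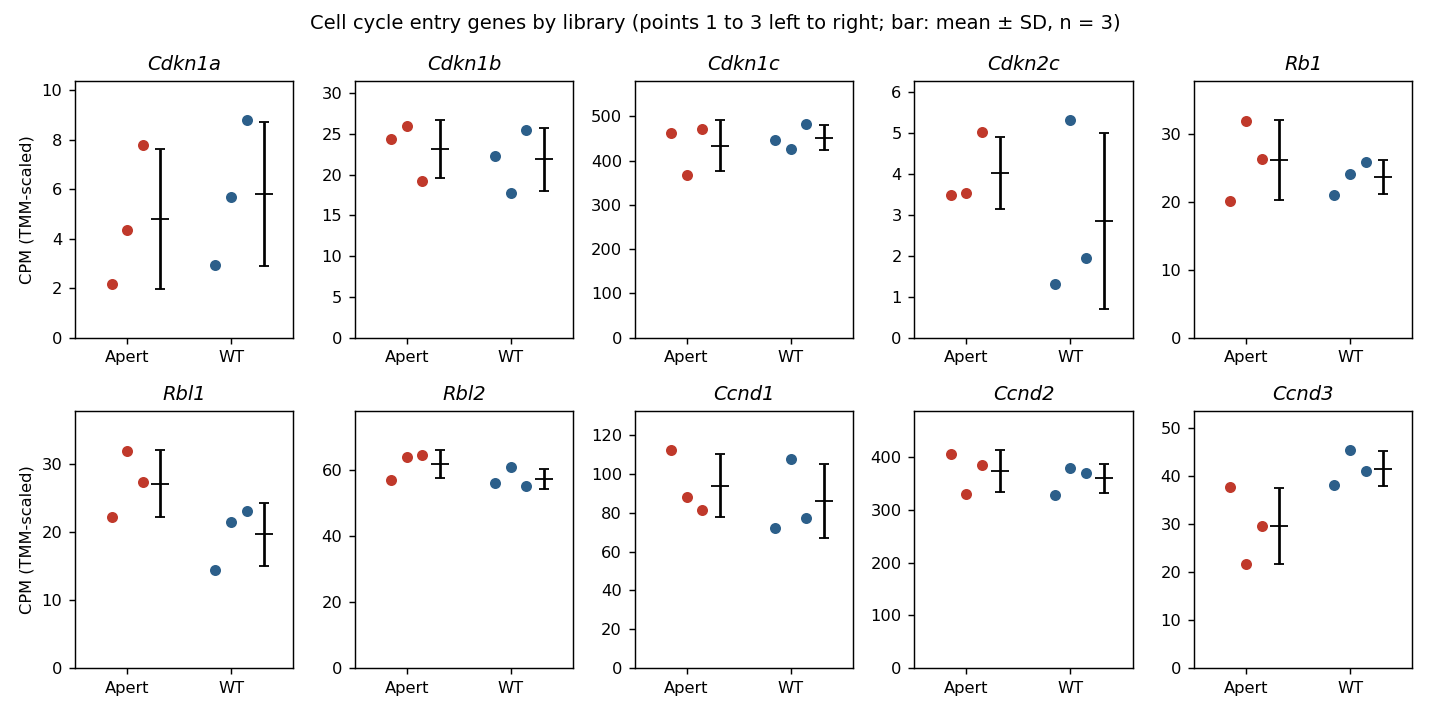
CPM of each gene in each library (vertical axes, 1 panel a gene, each from 0), Apert left of WT, with points for libraries and bars for the mean and SD of 3. Ccnd3 is the gene whose 3 Apert libraries, 21.7 to 37.7 CPM, all lie below the 3 WT libraries, 38.2 to 45.4 CPM; the groups overlap for the other 9.

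Among the inhibitors, Cdkn1c (chr7:143458350-143461050, minus strand, mm10) had the narrowest estimate. It is the maternally expressed, imprinted gene for p57, and lies on the same chromosome as Fgfr2. Its libraries held 462, 368 and 472 CPM in Apert mice, against 447, 426 and 482 CPM in WT mice. Apert replicate 2 was the lowest of all 6, and the other Apert libraries lay within the WT range. The log2 fold change was -0.06 (SE 0.14, edgeR adjusted p = 0.917), and its 95% interval spans a 0.787- to 1.17-fold level. The sign depends on the processing: with an offset for the GC content of genes, the log2 fold change of Cdkn1c was 0.241. That value lies just above the upper end of the interval, 0.231 on the log2 scale.

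Cdkn1b (chr6:134920401-134925513, plus strand) encodes p27. It had 24.4, 25.9 and 19.2 CPM in Apert libraries, against 22.3, 17.8 and 25.5 CPM in WT libraries, with the groups interleaved. Its log2 fold change was 0.09 (SE 0.22, 95% interval -0.38 to 0.55, edgeR adjusted p = 0.922), and -0.06 with the GC offset.

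Cdkn1a (chr17:29090979-29100722, plus strand), the p21 gene and a target of p53, was scarce and varied within each genotype. Its libraries held 2.19, 4.37 and 7.80 CPM in Apert mice, against 2.95, 5.70 and 8.79 CPM in WT mice. These rest on 22 to 48 counts in Apert and 34 to 81 counts in WT libraries. The SD was 59.1% of the mean in Apert and 50.2% in WT libraries, beside about 14.7% for counting error alone. The log2 fold change of -0.30 (SE 0.48, edgeR adjusted p = 0.865) has a 95% interval of -1.31 to 0.71. It reaches past a 2-fold lower level in Apert and does not reach a 2-fold higher one.

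Cdkn2c (chr4:109660876-109667189, minus strand), the INK4 inhibitor p18, was the lowest of the 10. It had 3.48, 3.55 and 5.04 CPM in Apert libraries, against 1.30, 5.31 and 1.95 CPM in WT libraries. WT replicate 2 was the highest of all 6 libraries and the other WT libraries were the lowest. The log2 fold change was 0.49 (SE 0.53, 95% interval -0.64 to 1.61, edgeR adjusted p = 0.782), and it lay between 0.13 and 1.30 when single libraries were left out. Of the other INK4 genes, Cdkn2a, which encodes p16 and p19ARF, had a count of 0 throughout, a result that still allows 3 counts in each library. Cdkn2b, for p15, held 9 counts in all and was not tested. Cdkn2d, for p19, averaged 3.04 ± 0.725 CPM in Apert and 1.55 ± 0.635 CPM in WT libraries (SD, n = 3 each), a log2 fold change of 0.96 (SE 0.56) that did not pass the edgeR test (adjusted p = 0.547).

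Among the pocket proteins, Rbl1 had the highest estimate. Rbl1 (chr2:157145893-157204534, minus strand) encodes p107, which is made mainly in cycling cells and is itself an E2F target. It had 22.2, 31.9 and 27.3 CPM in Apert libraries, against 14.3, 21.5 and 23.1 CPM in WT libraries. Apert replicates 2 and 3 were above every WT library, and Apert replicate 1 lay between the WT values. The log2 fold change was 0.47 (SE 0.23, 95% interval -0.02 to 0.95), with an unadjusted p of 0.0601 and an edgeR adjusted p of 0.475. It was 0.29 with the GC offset, 0.31 with library totals alone and 0.28 without WT replicate 1, the lowest library.

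The start site of Rbl1 holds a cluster of letters that E2F factors recognise, shown because Rbl1 had the most matches among the 6 members with a promoter window. The motif searched was TTNNCGC, on both strands, in RefSeq windows of 300 bases (250 before and 50 after a start site, GRCm38.p6). At chr2:157204520-157204568, written on the gene's own minus strand with matches in capitals, the stretch reads:
Rbl1: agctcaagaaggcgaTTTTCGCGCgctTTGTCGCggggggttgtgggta
It holds 3 matches, of which 2 overlap. At least 1 match stood in 20.24% of the 32851 mouse promoter windows, and 2 or more in 4.167%. Windows were at hand for Cdkn1a, Cdkn1b, Cdkn2c, Rbl1, Rbl2 and Ccnd3, and not for Cdkn1c, Rb1, Ccnd1 and Ccnd2. Of the 6 genes with a window, Cdkn1a and Cdkn2c had 1 match each and Cdkn1b, Rbl2 and Ccnd3 had none in these windows. A match of letters is not a measured binding site.

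Rbl2 (chr8:91070057-91123844, plus strand), whose product p130 holds E2F targets silent in resting cells, was the steadiest of the 10. Its libraries held 57.0, 64.0 and 64.5 CPM in Apert mice, against 56.1, 60.9 and 55.2 CPM in WT mice, a highest value only 1.17 times the lowest. The log2 fold change was 0.11 (SE 0.16, 95% interval -0.23 to 0.44, edgeR adjusted p = 0.854). Rb1 (chr14:73183673-73325822, minus strand), the founding tumour suppressor of the family, had 20.2, 31.9 and 26.3 CPM in Apert libraries, against 21.0, 24.2 and 25.9 CPM in WT libraries. All WT values lay inside the Apert range. Its log2 fold change was 0.14 (SE 0.22, 95% interval -0.32 to 0.59, edgeR adjusted p = 0.862). Exons of Rb1 share 896 bases with Lpar6 and Rcbtb2, and those of Rbl2 share 693 bases with Aktip; fragments there cannot be assigned to 1 gene.

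The D cyclins, which carry mitogen signals to CDK4 and CDK6, differed in how their libraries fell. Ccnd3 (chr17:47505051-47599691, plus strand), for cyclin D3, had 37.7, 21.7 and 29.6 CPM in Apert libraries, against 38.2, 45.4 and 41.1 CPM in WT libraries. It was the only member whose groups did not overlap, and all 3 Apert libraries were below all 3 WT libraries, as for 7.7% of tested genes (16.6% of genes had no overlap in either direction). The gap was narrow, since Apert replicate 1 lay just under WT replicate 1. The log2 fold change was -0.48 (SE 0.21, 95% interval -0.92 to -0.04), with an unadjusted p of 0.0326 and an edgeR adjusted p of 0.393. It was -0.24 with the GC offset (adjusted p = 0.849). Leaving out Apert replicate 2 gave -0.31, and leaving out Apert replicate 1 gave -0.73 (adjusted p = 0.0856). Exons of Ccnd3 hold 56.7% G and C and share 361 bases with Bysl.

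Ccnd2 (chr6:127125779-127151048, minus strand), the most abundant D cyclin here, had 406, 330 and 386 CPM in Apert libraries, against 328, 381 and 371 CPM in WT libraries. The groups overlapped, and the log2 fold change of 0.06 (SE 0.14, edgeR adjusted p = 0.918) spans a 0.854- to 1.27-fold level at 95%. Ccnd1 (chr7:144929931-144939869, minus strand), the D cyclin most studied as a target of growth factor signals, had 112, 88.3 and 81.6 CPM in Apert libraries, against 72.4, 108 and 77.6 CPM in WT libraries. Apert replicate 1 and WT replicate 2 were high and the other libraries were close together. Its log2 fold change was 0.13 (SE 0.18, 95% interval -0.24 to 0.51, edgeR adjusted p = 0.832). Ccnd1 also lies on the chromosome that holds Fgfr2, and its exons share 818 bases with LTO1.

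**Figure D3:**
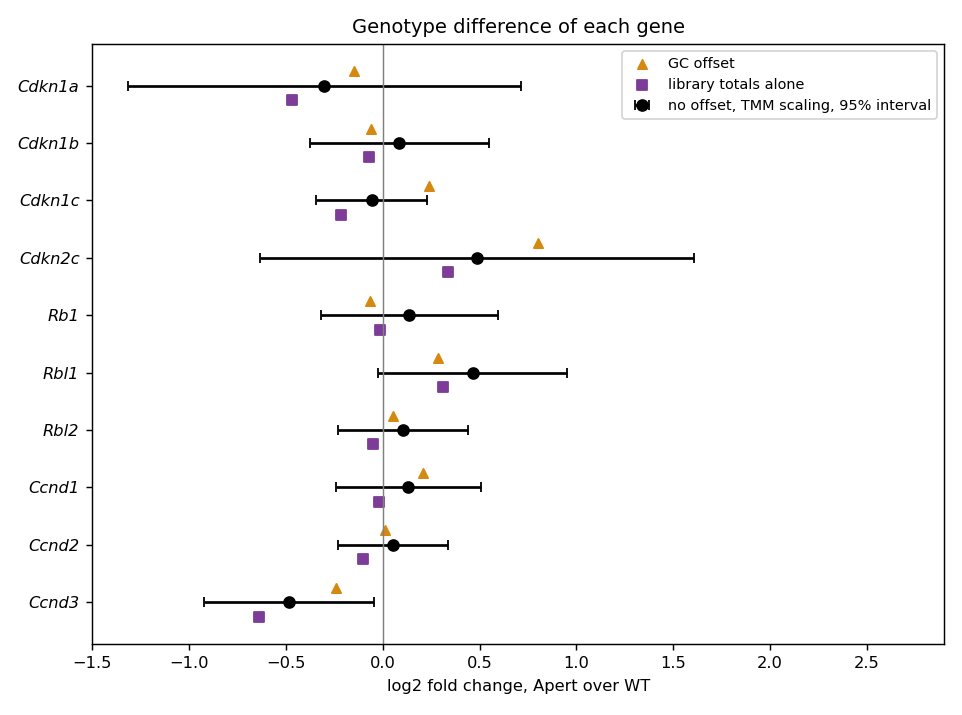
Log2 fold change of each gene, Apert over WT (horizontal axis), with the 95% interval of the edgeR fit (black circles), and the same value with a GC offset (triangles) and with library totals alone (squares). The interval of Ccnd3, -0.92 to -0.04, is the one that leaves out 0 before adjustment, and its GC offset value is -0.24.

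Shares within each family describe the balance among its members, free of library scaling. They rest on the same counts as the values above. The shares were not computed with the GC offset, which brought the Ccnd3 and Rbl1 fold changes nearer to no difference. Among the Cip/Kip genes, Cdkn1c made up 96.8% ± 0.651 of the CPM per kilobase in Apert and 96.9% ± 0.560 in WT libraries (SD, n = 3 each; two-sided exact permutation p = 0.8). Ccnd3 made up 4.10%, 2.97% and 3.65% of the D cyclins in Apert libraries, against 5.39%, 5.17% and 5.21% in WT libraries, 1.69 percentage points lower in Apert. As raw counts, not divided by length, its share was 4.93% to 6.78% in Apert and 8.40% to 8.71% in WT libraries. Rbl1 made up 24.3%, 26.9% and 25.03% of the pocket proteins in Apert libraries, against 17.1%, 21.9% and 23.95% in WT libraries, 4.39 percentage points higher in Apert and 2.46 without WT replicate 1. In both, the 3 libraries of each genotype did not overlap, and the two-sided exact permutation p was 0.1, the smallest that 3 against 3 can give; over the 9 shares compared, the Benjamini-Hochberg adjusted value was 0.45. Ccnd2 held 70.2% of the D cyclins in Apert and 70.1% in WT libraries, and Rbl2 held 50.3% of the pocket proteins in Apert and 53.5% in WT libraries (exact permutation p = 1 and 0.5).

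**Figure D4:**
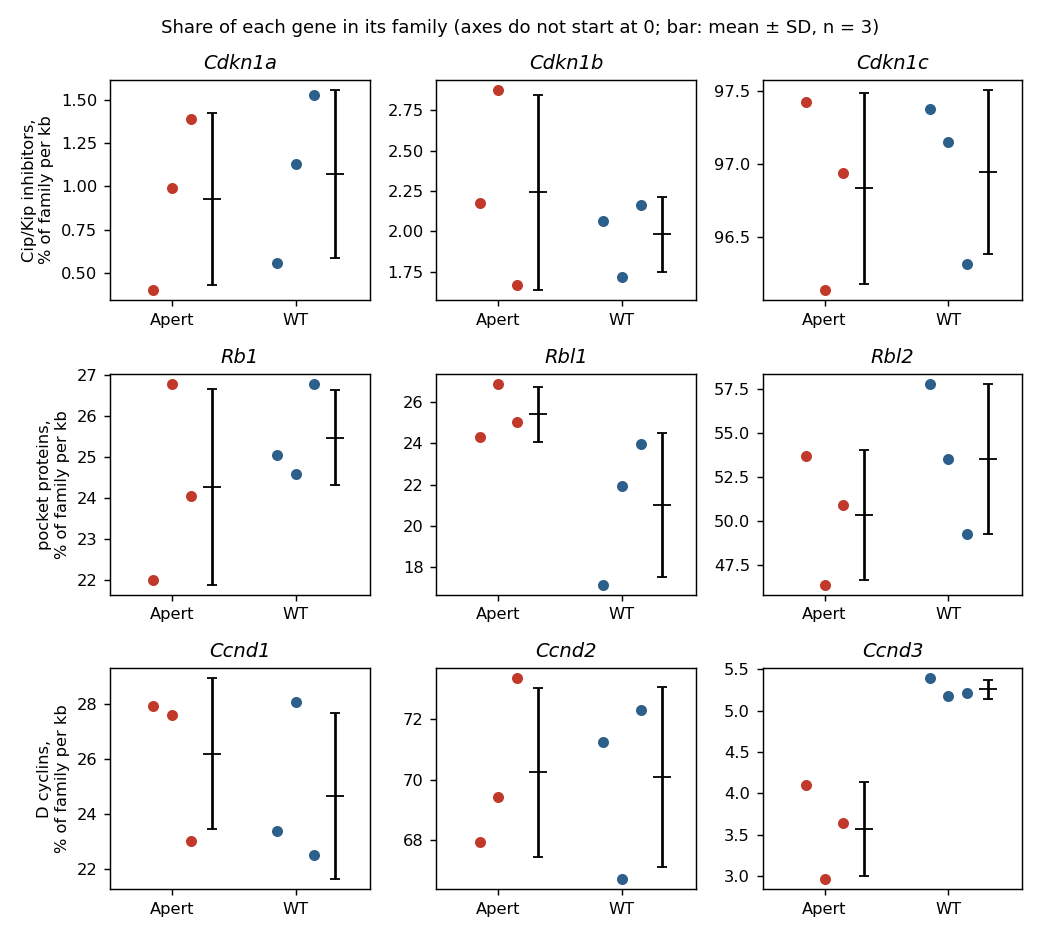
Share of each family's CPM per kilobase held by each member (vertical axis, percent), by library, Apert left of WT. Cdkn1c holds 96.8% of the Cip/Kip family in Apert and 96.9% in WT libraries on average, Ccnd2 about 70% of the D cyclins in both, and Ccnd3 takes 2.97% to 4.10% in Apert against 5.17% to 5.39% in WT libraries.

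The kinases and E cyclins that work beside the D cyclins were measured for 9 of 9 genes, and none passed the edgeR test. Of the 9, 1 had an unadjusted p under 0.05 (11.4% of all tested genes), and their median log2 fold change was -0.22. For these and the lists that follow, levels are mean ± SD over 3 libraries, brackets hold the log2 fold change, Apert over WT, and adjusted p is from the edgeR fit. Cdk4, the main partner of the D cyclins, averaged 51.2 ± 2.67 CPM in Apert and 64.5 ± 5.40 CPM in WT libraries (log2 fold change -0.33, adjusted p = 0.455). Ccne2, for cyclin E2, which acts with CDK2 after the D cyclins, averaged 33.6 ± 4.48 CPM in Apert and 24.4 ± 5.43 CPM in WT libraries (0.46, adjusted p = 0.429). With the GC offset these were -0.20 for Cdk4 and 0.17 for Ccne2, and Ccne2 was 0.28 on leaving out WT replicate 1.

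Downstream, the E2F and DP factors were also all measured, 10 of 10, and none passed the edgeR test. Without adjustment, 2 had p under 0.05, against 11.4% of all tested genes. The 3 Apert libraries lay above the 3 WT libraries for 4 of the 10, against 8.92% of all tested genes. E2f8, a repressor E2F that is itself induced in S phase, averaged 73.7 ± 8.61 CPM in Apert and 44.0 ± 13.8 CPM in WT libraries (log2 fold change 0.74, adjusted p = 0.138). Its relative E2f7 averaged 38.0 ± 3.11 CPM in Apert and 21.2 ± 7.22 CPM in WT libraries (0.85, adjusted p = 0.144). Both passed the DESeq2 test (adjusted p = 0.0386 and 0.0403), which called 1.67% of all tested genes. With single libraries left out, E2f8 fell as low as 0.55 and E2f7 as low as 0.60. In none of those edgeR fits did either gene pass. The MuvB core and its partners, with which p130 and p107 form the DREAM repressor, had 8 of 8 genes measured. None passed the edgeR test, 2 had an unadjusted p under 0.05 (11.4% of all tested genes), and the median of the 8 was 0.26. Lin9, a core subunit, averaged 22.5 ± 6.26 CPM in Apert and 13.6 ± 1.29 CPM in WT libraries (0.72, adjusted p = 0.253), and the histone binding subunit Rbbp4 66.7 ± 2.76 CPM in Apert and 51.3 ± 8.89 CPM in WT libraries (0.38, adjusted p = 0.419). Lin9 was 0.47 on leaving out Apert replicate 2, and Rbbp4 0.22 with library totals alone.

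E2F target genes of G1 and S phase were measured for 23 of 23, and none passed the edgeR test, while 8 had an unadjusted p under 0.05 (11.4% over all tested genes). Positive log2 fold changes were seen for 16 and negative ones for 7, with a median of 0.33. That median was 0.12, 0.15 and 0.15 on leaving out Apert replicate 2, Apert replicate 1 and WT replicate 1, 0.20 with the GC offset and 0.18 with library totals alone. Slbp, which handles histone messages in S phase, averaged 41.9 ± 3.64 CPM in Apert and 27.3 ± 1.84 CPM in WT libraries (log2 fold change 0.62, adjusted p = 0.168). Rrm1, a subunit of ribonucleotide reductase, averaged 90.3 ± 16.4 CPM in Apert and 63.1 ± 9.69 CPM in WT libraries (0.52, adjusted p = 0.240), a value of 0.33 on leaving out Apert replicate 1. DESeq2 called 1 gene of this list, and 1.67% of all tested genes.

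Mitotic markers were the one group around the switch in which genes passed the edgeR test, 5 of 11 measured, all higher in Apert (0.398% of all tested genes were called higher). Their median log2 fold change was 0.83, and the other 6 did not pass. The list was written with earlier results of these data known, so setting it beside all tested genes is a description and not a test. Mki67, for the proliferation marker Ki-67, rose by 1.06 on the log2 scale (adjusted p = 0.00543) and Top2a, a topoisomerase of dividing cells, by 0.93 (adjusted p = 0.0105). The mitotic cyclin Ccnb1 averaged 56.6 ± 1.34 CPM in Apert and 29.2 ± 6.26 CPM in WT libraries (log2 fold change 0.95, adjusted p = 0.035). Another mitotic cyclin gene, Ccnb2, averaged 43.4 ± 0.984 CPM in Apert and 23.0 ± 3.59 CPM in WT libraries (0.91, adjusted p = 0.0381), and the spindle checkpoint kinase Bub1 64.4 ± 6.76 CPM in Apert and 33.4 ± 8.10 CPM in WT libraries (0.95, adjusted p = 0.0381).

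The number of mitotic calls depended on single libraries and on scaling. The number called was 1 with the GC offset, 2 with library totals alone and 0 when Apert replicate 2, Apert replicate 3 or WT replicate 3 was left out. It was 1 on leaving out WT replicate 1 and 3 on leaving out WT replicate 2. The mitotic median was 0.78 (log2) with the GC offset, 0.68 with library totals alone and 0.71 to 0.99 with single libraries left out. Calls over all genes numbered 5 with the GC offset, and 2, 11 and 0 on leaving out Apert replicate 2, Apert replicate 3 and WT replicate 3. Markers of perichondrium and fibrous mesenchyme were measured for 12 of 12, with 10 positive and 2 negative log2 fold changes. The edgeR test called 2 of them (Col3a1 and Ogn) higher in Apert, beside 0.398% of all tested genes. The 3 Apert libraries lay above the 3 WT libraries for 4 of the 12, against 8.92% of all tested genes. The sum of the 12 markers was 4630 to 5307 CPM in Apert and 3498 to 4087 CPM in WT libraries. Glial markers were lower: all 5 measured of 6 had negative log2 fold changes, and none passed the edgeR test. An unadjusted p under 0.05 was seen for 2 of them, against 11.4% of all tested genes. The glial sum was 275 to 328 CPM in Apert and 364 to 433 CPM in WT libraries. The mitochondrial share, given above, was also higher in all 3 Apert libraries. Their part in the mitotic values was not tested; with mitochondrial genes removed before scaling, the median of the mitotic markers was 0.82 and that of the 10 genes 0.09.

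**Figure D5:**
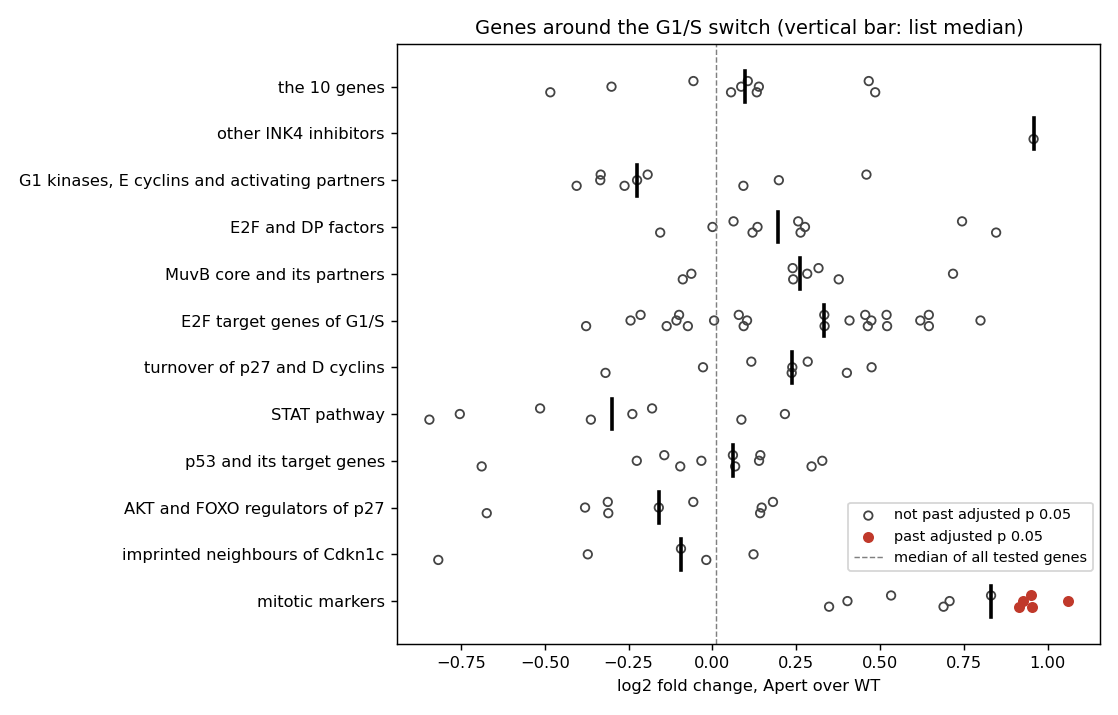
Log2 fold change, Apert over WT, of each measured gene in the lists around the G1/S switch (horizontal axis; 1 row a list), with a bar at each list's median and a dashed line at the median of all tested genes. Filled points passed the adjusted threshold: the 5 mitotic markers, between 0.91 and 1.06.

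The lists of 3 upstream pathways and of chromosomal neighbours of Cdkn1c gave no gene past the edgeR threshold, and none of their genes had an unadjusted p under 0.05. In the STAT pathway, 8 of 9 genes were measured, with a median log2 fold change of -0.30. The 3 Apert libraries lay below the WT libraries for 3 of the 8 (7.7% of all tested genes) and above them for 1 (8.92%). Stat3 averaged 25.02 ± 3.07 CPM in Apert and 32.1 ± 4.23 CPM in WT libraries (-0.36, adjusted p = 0.515), and its exons overlap those of Stat5a. Jak2, a kinase that activates STATs, averaged 148 ± 4.35 CPM in Apert and 128 ± 4.52 CPM in WT libraries (0.22, adjusted p = 0.577), a value of 0.09 with the GC offset and 0.06 with library totals alone.

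For p53 and its targets, a known inducer of Cdkn1a, 11 of 16 genes were measured, with a median of 0.06. Trp53 averaged 107 ± 35.2 CPM in Apert and 125 ± 15.9 CPM in WT libraries (log2 fold change -0.23, adjusted p = 0.722), and its target Plk2 52.8 ± 2.76 CPM in Apert and 42.0 ± 12.9 CPM in WT libraries (0.33, adjusted p = 0.578). Trp53 was -0.08 with the GC offset and between -0.42 and 0.01 with single libraries left out, and Plk2 between 0.14 and 0.59. AKT and FOXO genes, which set the transcription and location of p27, were measured for 9 of 9, with a median of -0.16, and 4 of them had all 3 Apert libraries below the WT libraries (7.7% of all tested genes). Akt1 averaged 27.7 ± 1.0 CPM in Apert and 36.1 ± 4.12 CPM in WT libraries (-0.38, adjusted p = 0.465), and Foxo3, a transcription factor that can induce Cdkn1b, 87.4 ± 14.6 CPM in Apert and 108 ± 8.57 CPM in WT libraries (-0.31, adjusted p = 0.484). With the GC offset these were -0.06 for Akt1 and -0.18 for Foxo3, and Foxo3 was -0.19 on leaving out Apert replicate 2. The imprinted neighbours of Cdkn1c were measured for 5 of 8, with a median of -0.09. Tssc4 averaged 2.66 ± 0.151 CPM in Apert and 4.69 ± 0.616 CPM in WT libraries (-0.82, adjusted p = 0.497), and the potassium channel gene Kcnq1 3.66 ± 1.22 CPM in Apert and 4.81 ± 1.99 CPM in WT libraries (-0.37, adjusted p = 0.808). With the GC offset these were -0.51 for Tssc4 and -0.11 for Kcnq1, and Kcnq1 lay between -0.67 and -0.04 with single libraries left out.

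Proteins are removed as well as made, and the genes that mark p27 and D cyclins for degradation were measured for 8 of 8. None passed the edgeR test, 2 had an unadjusted p under 0.05 (11.4% of all tested genes), and the median log2 fold change was 0.24. Skp1a, a subunit of the SCF ubiquitin ligases, averaged 63.0 ± 5.35 CPM in Apert and 47.8 ± 2.28 CPM in WT libraries (0.40, adjusted p = 0.353). Cks1b, which lets SCF with SKP2 recognise phosphorylated p27, averaged 42.9 ± 9.0 CPM in Apert and 30.9 ± 7.66 CPM in WT libraries (0.47, adjusted p = 0.415), a value of 0.26 on leaving out Apert replicate 1. With library totals alone, Skp1a was 0.24.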

How the data were processed

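The authors deposited raw counts: read pairs summed per gene with featureCounts 1.4.4 over exons of Ensembl release 75, ignoring strand, per the file headers. Trimming with cutadapt and alignment with STAR 2.5.2b to mm10 are named in the submitters' processing notes. Per the labels' protocols, 15 ng of RNA was amplified before tagmentation. Genes without a symbol (1317 of 38924) held 0.168% to 0.205% of counts and stayed in the totals. Counting SDs and the floor of 3 counts cover counting error only, as no molecular identifiers were described; the 95% intervals come from the fit over mice.

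From these counts, edgeR 4.0.16 in R 4.3.3 kept 13333 genes with filterByExpr, scaled libraries by TMM and tested Apert over WT with the quasi-likelihood F test, adjusted by Benjamini-Hochberg at 0.05 over all of them. On simulated data, the fit called 52 of 100 genes given a log2 change of 1 and 89 of 100 given a change of 2. It also called 7 genes given no change. A 2-fold difference can thus go uncalled. Standard errors (SE) are the log2 fold change over the square root of F. No 2 libraries agreed within sampling noise (chi-square per gene from 11.4 to 50.6). Level per length is CPM over kilobases of merged exon. Alternatives covered scaling, filter, removal of mitochondrial genes, DESeq2 1.42.0, limma-voom (limma 3.58.1), GC and length offsets (mgcv 1.9.3; GC known for 13192 of the tested genes), a replicate block, thinning to the shallowest library and each library left out.

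The text names all 10 genes, Fgfr2, and from each pathway list every gene past the threshold and the 2 measured genes with the smallest p. Members and lists were chosen with earlier results of these data known. Motifs were read from GENCODE M21 coding sequence, translated, in place of RefSeq proteins, which were not used here. Kcnq1ot1 had no match by identifier and is not reported.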

Additional observations from a re-analysis of the deposited data

How the results depend on the processing

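In 19 alternative settings, none of the 10 genes passed the adjusted threshold. Of 190 gene values, 170 kept their direction and 20 turned; Cdkn2c, Rbl1 and Ccnd3 kept theirs in all 19. With library totals alone, log2 fold changes turned to -0.0689 (Cdkn1b), -0.0161 (Rb1), -0.0502 (Rbl2), -0.0178 (Ccnd1) and -0.102 (Ccnd2), and the median of the 10 to -0.0596. With the GC offset they turned to -0.0611 (Cdkn1b), 0.241 (Cdkn1c) and -0.0645 (Rb1). With single libraries left out, values ran from -0.85 to 0.12 (Cdkn1a), -0.0444 to 0.210 (Cdkn1b), -0.136 to 0.0397 (Cdkn1c), -0.0442 to 0.268 (Rb1), -0.0488 to 0.328 (Ccnd1), -0.0387 to 0.129 (Ccnd2) and -0.421 to 0.0069 (Trp53). Share differences, in percentage points, then ran from -0.400 to 0.120 (Cdkn1a), -0.0589 to 0.544 (Cdkn1b), -0.431 to 0.235 (Cdkn1c) and -1.54 to 1.29 (Ccnd2). Over all genes, 60 were called, against 247 with no filter, 223 with DESeq2, 5 with the GC offset and 0 to 229 with single libraries left out. Mitotic markers called were 2 with library totals alone, 1 with the GC offset and 0 to 5 with libraries left out, while their median log2 fold change stayed between 0.68 and 0.99; DESeq2 called 1 E2F target gene. The cause of these shifts was not tested. Deviations of same-numbered libraries from their group means correlated at 0.19, 0.02 and 0.09, and those of differently numbered libraries at -0.145 to 0.07. The labels do not say what a number shares, so this check cannot settle whether the mice were paired. With a replicate block 172 genes were called, and with the block and GC offset 70, none of them among the 10. With the block and GC offset, Cdkn1b, Cdkn1c and Rb1 had -0.064, 0.244 and -0.075. With 3 mice a group, 95% intervals of the scarce genes Cdkn1a and Cdkn2c reach past a 2-fold difference, while those of Cdkn1c and Ccnd2 span 0.787- to 1.17-fold and 0.854- to 1.27-fold. These intervals do not cover the choice of processing: the GC offset value of Cdkn1c, 0.241, lies above the upper end of its interval, 0.231 (log2).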
